A study of Homo sapiens with 8 samples.

Results

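A set of 9 genes of the NRF2 antioxidant pathway was followed through enzalutamide exposure of U87MG cells: NFE2L2, KEAP1, HMOX1, GCLC, GCLM, TXNRD1, SRXN1, NQO1 and OSGIN1. They were taken by gene symbol, with earlier results of these data known, and make up 9 of the 23368 genes listed in the count files. All 9 were among the 14448 genes with enough reads to be tested. U87MG is an established human glioblastoma cell line, and enzalutamide is an antagonist of the androgen receptor. RNA-seq was performed on 8 libraries, with 2 each from untreated cells (control) and from cells exposed to enzalutamide for 4 h, 24 h or 48 h. All groups were grown in the same serum-containing DMEM medium. The labels give neither the dose nor a vehicle for the untreated cells, and no harvest time for them. The labels do not say whether both libraries of a group had their own culture, so p-values reflect only library-to-library spread, possibly a technical one.

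NRF2, the protein made from NFE2L2, is a transcription factor that pairs with small MAF proteins on antioxidant response elements. In unstressed cells KEAP1 holds NRF2 and hands it to a CUL3 ubiquitin ligase for degradation, and electrophiles or oxidants that modify KEAP1 let NRF2 accumulate. Its known targets make and recycle glutathione and thioredoxin, break down haem, supply NADPH and clear quinones, and HMOX1 is also controlled by the haem-binding repressor BACH1, by heat shock factor and by metals. RNA of NFE2L2 or KEAP1 does not measure the amount or the place of the proteins.

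Promoter windows of 300 bases (250 before and 50 after a transcript start, RefSeq, build GRCh38.p14) matched 8 of the 9 genes, with 11 windows in all; HMOX1 had no entry. Each window was searched on both strands for TGACNNNGC, the core of the antioxidant response element, and for TGACTCA, the AP-1 site. A TGACTCA followed by GC matches both motifs. The core was present in 4 of the 11 windows, belonging to GCLM, TXNRD1 and KEAP1, against 13.3% of all 35116 windows in the table. The AP-1 letters were present in 1 of the 11 windows, that of OSGIN1, against 4.95% of all windows. The matches are shown as letters only, and any link to the changes in the libraries was not tested. They are written in the orientation of the motif, with the match in capitals and its first base on the gene's strand counted back from the transcript start.
GCLM, 34 bases before its start, chr1:93909446-93909474, minus-strand gene: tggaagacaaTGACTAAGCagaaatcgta
TXNRD1, first start, 99 bases before, chr12:104215670-104215698, plus-strand gene: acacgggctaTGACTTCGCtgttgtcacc
TXNRD1, first start, 8 bases before, chr12:104215761-104215789, plus-strand gene: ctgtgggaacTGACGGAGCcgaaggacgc
TXNRD1, second start, 102 bases before, chr12:104286920-104286948, plus-strand gene: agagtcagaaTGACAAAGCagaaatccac
KEAP1, second start, 54 bases before, chr19:10502807-10502835, minus-strand gene: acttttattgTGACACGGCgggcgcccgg
KEAP1, second start, 31 bases before, chr19:10502784-10502812, minus-strand gene: caggtcaccaTGACTAAGCagagccgggc
OSGIN1, 97 bases before its start, chr16:83953133-83953159, plus-strand gene: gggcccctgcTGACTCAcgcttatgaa
A match is a description of letters and not a measured binding site. The windows of SRXN1, NQO1, GCLC and NFE2L2 held neither motif, which says only that these letters are absent from these 300 bases.

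The libraries held 24620833 to 37162565 counts. Levels are given as CPM, the count relative to the library total after TMM scaling, and the TMM factors were 0.870 and 0.899 at 48 h and 1.02 to 1.08 elsewhere. Scaling by library totals alone moved the median log2 change of all genes at 48 h against control by -0.28, so every 48 h value depends on the scaling by about that much. The mesenchymal glioma markers VIM, CD44, FN1 and TNC had mean levels of 7991, 1895, 3930 and 2092 CPM in control cells, while the astroglial markers GFAP and S100B were at 0.430 and 0.0715 CPM. Of 10 glioma line markers, 7 reached 1 CPM in every group, and their summed level was 15609 to 16457 CPM in control, 13276 to 14571 CPM at 4 h and 24365 to 25315 CPM at 48 h. The markers did not move as one: VIM had a mean of 5679 CPM at 4 h and 13077 CPM at 48 h, NES of 26.1 CPM in control and 12.1 CPM at 48 h, and CHI3L1 of 95.2 CPM in control and 201 CPM at 4 h. Among immune markers CD68 and CSF1R were at 685 and 231 CPM in control cells, while PTPRC was at 0.0142 CPM and AIF1 and CD3E were at 0 in all groups. The summed level of these and 1 further immune marker, 2 of 6 being at 1 CPM or more, was 882 to 950.4 CPM in control and 1253 to 1386 CPM at 48 h. The part of these marker shifts in the 4 h and 48 h results was not tested.

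HMOX1, which encodes haem oxygenase 1, the inducible enzyme that splits haem into biliverdin, iron and carbon monoxide, rose 8.04-fold at 4 h. Its level was 387 and 372 CPM in the control libraries, 3194 and 2914 CPM at 4 h, 489 and 416 CPM at 24 h, and 627 and 635 CPM at 48 h. Both 4 h libraries stood far above all others, and no groups overlapped. The log2 change against control was 3.01 at 4 h (SE 0.08, edgeR adjusted p = 5.74e-09), 0.25 at 24 h (SE 0.08, adjusted p = 0.0381) and 0.73 at 48 h (SE 0.08, adjusted p = 8.37e-06). HMOX1 then fell from 4 h to 24 h by 2.75 on the log2 scale, and rose by 0.48 from 24 h to 48 h. The 24 h value did not hold without 24 h replicate 1 (log2 change 0.13, adjusted p = 0.354), without either control or either 4 h library, with DESeq2 (adjusted p = 0.0523), or in edgeR with DESeq2 size factors (0.0608) or library totals (0.0891). In these bulk cultures, more RNA per cell and more cells with the RNA cannot be told apart.

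Per kilobase of exon, HMOX1 ranked 173rd of 12765 genes with a known length in control cells and 14th at 4 h. Its level on that scale was 208 CPM per kb in control, 1676 at 4 h, 248 at 24 h and 346 at 48 h. In control cells TXNRD1 came next among the 9 genes with 169 CPM per kb, followed by NQO1 with 71.8, KEAP1 with 31.6, SRXN1 with 28.5 and NFE2L2 with 24.6. The lowest were GCLM, OSGIN1 and GCLC with 13.4, 13.3 and 8.05 CPM per kb. On this scale the glutathione ligase genes and OSGIN1 were the scarcest of the set in control cells, and the haem oxygenase and thioredoxin reductase genes the most abundant.

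**Figure D1:**
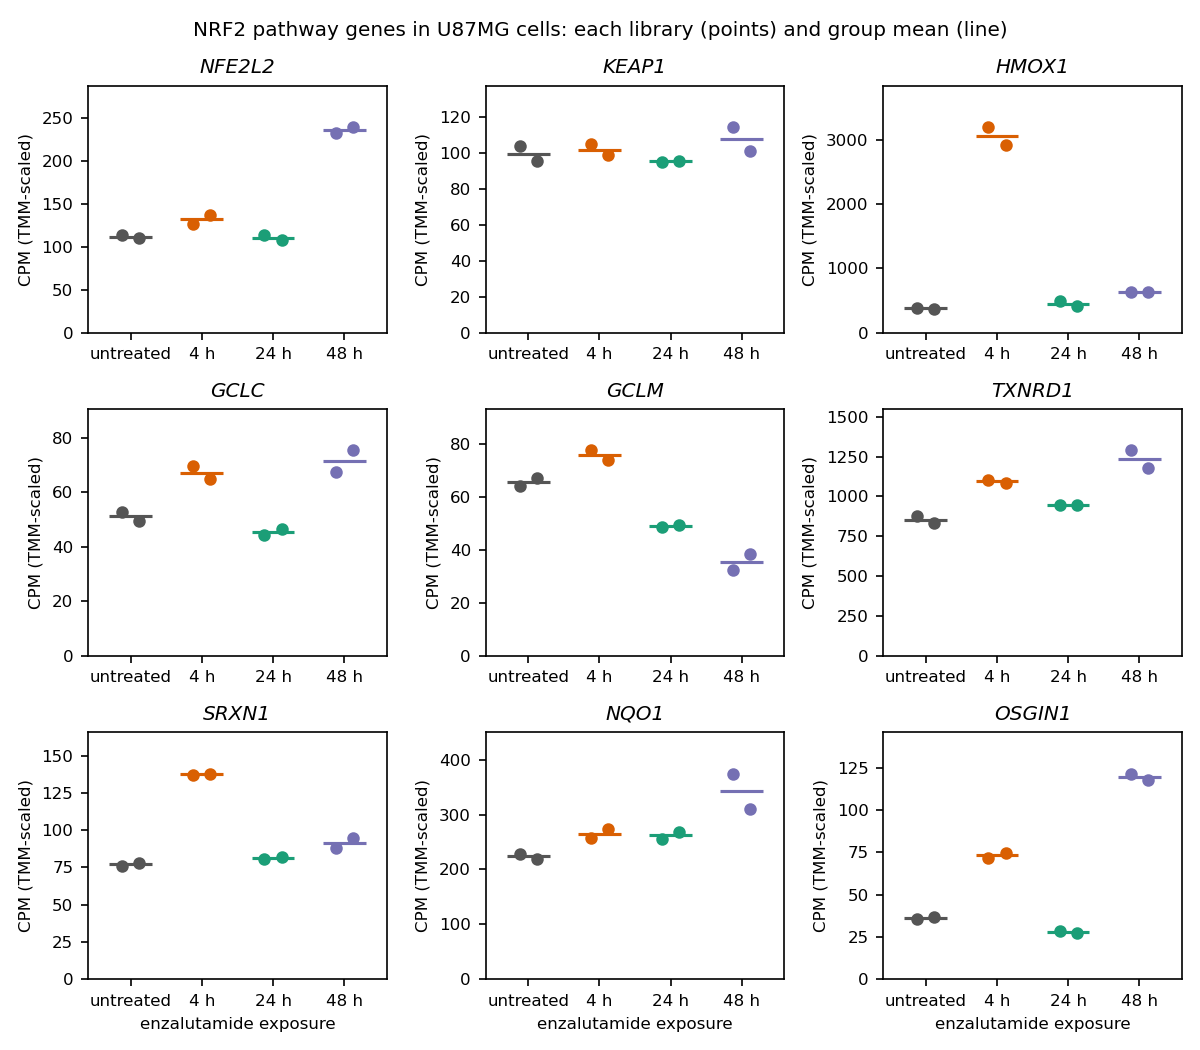
TMM-scaled CPM (vertical axes, linear from 0) of the 9 genes in untreated cells and after 4, 24 and 48 h of enzalutamide; points are libraries and lines are means of 2. HMOX1 stood at 2914 and 3194 CPM at 4 h only, OSGIN1 and NFE2L2 were highest at 48 h, and GCLM was lowest at 48 h.

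Of the 9 genes, 6 were called higher at 4 h against control and 0 lower at an adjusted p under 0.05 in edgeR's quasi-likelihood test, where 28.6% of all tested genes were called, 15% higher and 13.6% lower. At an unadjusted p under 0.05 the counts were 8 higher and 0 lower, and DESeq2 and limma-voom each called 7 higher and 0 lower. Scaling by library totals gave 5 higher and 0 lower. The median log2 change of the 9 genes was 0.36, beside -0.0040 over all tested genes. At 24 h against control 1 gene was called higher and 2 lower, where 22.3% of all genes were called, 12.9% higher and 9.39% lower, and the medians were -0.015 and 0.015. DESeq2 and library totals each gave 0 higher and 2 lower at 24 h, and limma-voom gave 1 and 2. With the 48 h libraries left out, an alternative added after the data were seen, the fit called 3 higher and 3 lower at 24 h. At 48 h against control 7 were called higher and 1 lower, where 66.9% of all genes were called, 33.3% higher and 33.5% lower. The medians at 48 h were 0.53 for the 9 genes and -0.022 for all genes, and scaling by library totals left 5 higher and 1 lower with a median of 0.25. Under that scaling 2742 of all 14448 genes were called higher and 6729 lower, with a median of -0.30. All 3 comparisons share the same 2 control libraries. Because the 9 genes were chosen with earlier results of these data known, the counts beside the shares of all genes are descriptions and not tests.

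**Figure D2:**
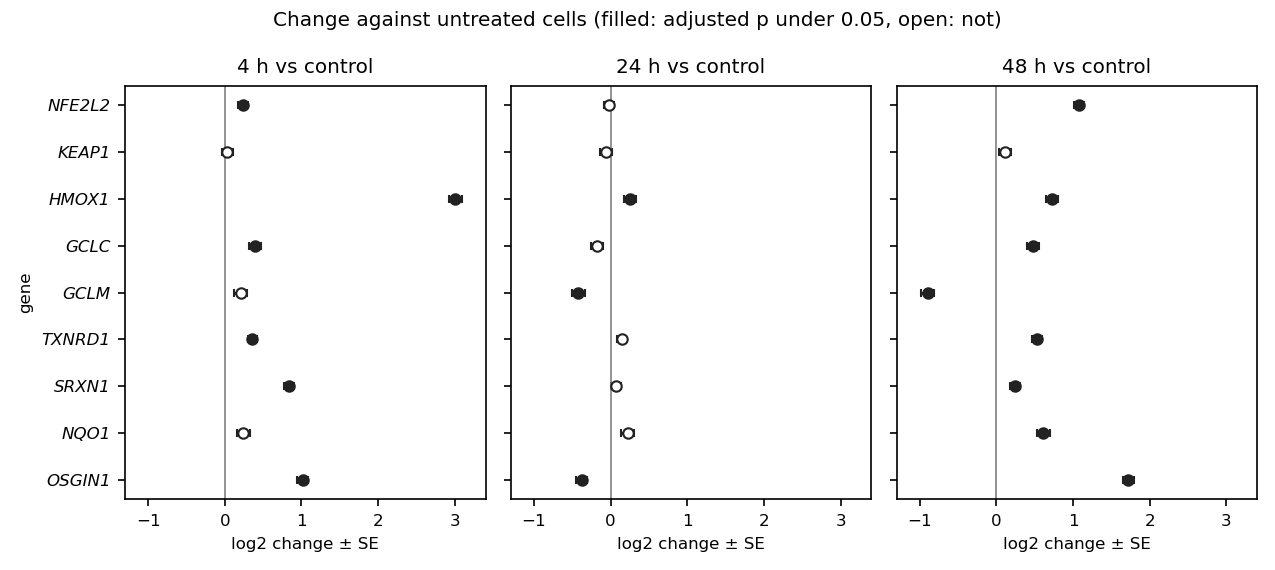
Log2 change against control (horizontal axis, edgeR, bars are ± SE) of each gene at 4, 24 and 48 h; filled points have an adjusted p under 0.05. HMOX1 reached 3.01 at 4 h, OSGIN1 1.72 at 48 h, and GCLM was at -0.89 at 48 h.

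Between exposures, most of the 9 genes fell from 4 h to 24 h and rose from 24 h to 48 h. Against 4 h, 7 genes were called lower at 24 h and 0 higher, where 41.5% of all genes were called, 20.3% lower and 21.2% higher. An unadjusted p under 0.05, DESeq2 and limma-voom gave the same counts of 7 and 0. The genes without a call were NQO1 (log2 change -0.016) and KEAP1 (-0.094), and the median of the 9 was -0.57 beside -0.0059 over all genes. From 24 h to 48 h, 7 were called higher and 1, GCLM, lower, where 66.8% of all genes were called, 31.5% higher and 35.3% lower. Library totals gave 5 higher and 1 lower from 24 h to 48 h, with a median of 0.17 in place of 0.39. The 48 h libraries were also set against the 4 h libraries, a comparison added to order the levels. There 4 genes were called higher (OSGIN1, NQO1, TXNRD1 and NFE2L2) and 3 lower (HMOX1, SRXN1 and GCLM), where 69.5% of all genes were called, 34.5% higher and 35% lower. Library totals left 2 higher and 3 lower there, and turned the median of the 9 genes from 0.089 to -0.12.

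Among the regulators, NFE2L2 rose at 48 h, and KEAP1 was called in none of the 6 comparisons of the edgeR fit. NFE2L2 was at 113 and 109.6 CPM in control, 126.5 and 136.8 CPM at 4 h, 113 and 108 CPM at 24 h, and 232 and 239 CPM at 48 h. Both 48 h libraries were above all others, and the 24 h range overlapped that of the control. The log2 change at 48 h was 1.08 (SE 0.06, adjusted p = 9.41e-08), a 2.11-fold rise. At 4 h it was 0.24 (adjusted p = 0.0163), a call lost without control replicate 1 (adjusted p = 0.0626), control replicate 2 (0.117) or 4 h replicate 2 (0.167), and with library totals (0.0703). At 24 h it was -0.015 (adjusted p = 0.901).

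KEAP1, the sensor and adaptor that targets NRF2 for degradation, was at 103.8 and 95.4 CPM in control and at 105.0 and 99.0 CPM at 4 h. It was at 95.1 and 95.8 CPM at 24 h and at 114.5 and 101.3 CPM at 48 h. All 8 libraries lay between 95.1 and 114.5 CPM, and neighbouring groups in the order of the means overlapped. Its log2 change was 0.034 at 4 h (adjusted p = 0.785), -0.061 at 24 h (0.621) and 0.12 at 48 h (0.201). Without 48 h replicate 2 the 48 h change was 0.21 (adjusted p = 0.0131), and with library totals it was -0.16. From 24 h to 48 h KEAP1 changed by 0.18 (adjusted p = 0.0600), which passed the threshold with DESeq2 (0.0287), DESeq2 size factors in edgeR (0.0236), a replicate block (0.0309) or 48 h replicate 2 left out (0.00267), and was -0.041 with library totals.

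The other regulators on the list were 24 tested genes, of which 7 were called higher and 1 lower at 4 h. At 24 h 1 was higher and 1 lower, and the 48 h counts were 10 higher and 6 lower. The share called was 33.3%, 8.33% and 66.7%, beside 28.6%, 22.3% and 66.9% of all tested genes. Under library totals the 48 h counts became 6 and 10. MAFK, a small MAF partner of NRF2, was at 36.1 and 36.6 CPM in control and at 87.9 and 86.3 CPM at 4 h, with no overlap (log2 change 1.26, SE 0.10, adjusted p = 6.91e-06). MAFF, another small MAF, rose at 4 h by 0.71 on the log2 scale (adjusted p = 0.00017). SQSTM1, the autophagy receptor that can sequester KEAP1, was at 1476 and 1446 CPM in control, 1989 and 2066 CPM at 4 h, 1487 and 1531 CPM at 24 h, and 4329 and 4256 CPM at 48 h. It thus rose at 4 h (log2 change 0.47, adjusted p = 7.38e-05) and more at 48 h (1.55, adjusted p = 2.07e-09). CUL3, the scaffold of the ligase that KEAP1 serves, fell 3.34-fold at 48 h, from 92.5 and 90.6 CPM to 23.5 and 31.4 CPM (log2 change -1.74, adjusted p = 1.35e-07).

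The haem and iron genes include haem synthesis enzymes, ferritin chains and iron carriers that act around haem oxygenase. Of 21 tested, 5 were called higher and 3 lower at 4 h (4 and 4 by library totals). The counts were 4 higher and 2 lower at 24 h (3 and 3) and 10 higher and 6 lower at 48 h (6 and 8). The list had 38.1%, 28.6% and 76.2% called, where all tested genes had 28.6%, 22.3% and 66.9%. TFRC, the transferrin receptor that brings iron into cells, was at 519 and 537 CPM in control, 661 and 644 CPM at 4 h, 806 and 822 CPM at 24 h, and 936 and 961 CPM at 48 h. TFRC was higher at each later exposure, with no overlap between groups, and its log2 changes against control were 0.31, 0.62 and 0.84 (adjusted p = 0.0018, 2.28e-05 and 1.83e-07). ALAS1, the first enzyme of haem synthesis, rose by 0.38 on the log2 scale at 4 h (adjusted p = 0.00202). ACO1, the cytosolic aconitase that also acts as an iron regulatory protein, was at 227 and 236 CPM in control, 180.3 and 179 CPM at 4 h and 185 and 183 CPM at 24 h. It fell at 4 h (log2 change -0.36, adjusted p = 0.000745) and at 24 h (-0.33, adjusted p = 0.00196). FTL, the ferritin light chain that stores iron, was at 2511 and 2219 CPM in control, 2552 and 2616 CPM at 4 h and 5531 and 4779 CPM at 48 h. FTL rose at 48 h (log2 change 1.12, adjusted p = 2.84e-07), and its 4 h value did not pass the test (0.13, adjusted p = 0.24). IREB2, an iron-regulated RNA-binding protein that represses ferritin translation, fell at 48 h from 63.2 and 66.9 CPM to 24.5 and 25.5 CPM (log2 change -1.38, adjusted p = 3.28e-08).

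The subunits of glutamate-cysteine ligase, which makes the rate-limiting step of glutathione synthesis, moved in opposite directions at 48 h. GCLC, the catalytic subunit, was at 53.0 and 49.6 CPM in control, 69.6 and 65.0 CPM at 4 h, 44.2 and 46.5 CPM at 24 h, and 67.6 and 75.5 CPM at 48 h. The 4 h and 48 h libraries of GCLC overlapped and both groups lay above control, while the 24 h libraries lay below it. The log2 change of GCLC was 0.39 at 4 h (SE 0.08, adjusted p = 0.00395), -0.18 at 24 h (adjusted p = 0.133) and 0.48 at 48 h (SE 0.08, adjusted p = 0.000245). The 4 h call was lost without control replicate 2 (adjusted p = 0.0516), and with library totals the 48 h change was 0.20 (adjusted p = 0.0507).

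GCLM, the modifier subunit that raises the activity of GCLC, was at 64.3 and 67.0 CPM in control, 77.6 and 74.0 CPM at 4 h, 48.7 and 49.4 CPM at 24 h, and 32.5 and 38.3 CPM at 48 h. The groups did not overlap, and after 4 h each later group was lower. The log2 change of GCLM was 0.21 at 4 h (adjusted p = 0.0802), -0.42 at 24 h (SE 0.08, adjusted p = 0.0044) and -0.89 at 48 h (SE 0.08, adjusted p = 3.32e-06). Without 24 h replicate 1 the 24 h change was -0.41 (adjusted p = 0.0510). Per kilobase of exon, the ratio of GCLC to GCLM was 0.634 and 0.570 in control and 0.690 and 0.675 at 4 h. The 24 h libraries had ratios of 0.698 and 0.723, and the 48 h libraries of 1.60 and 1.52. GCLM was the more abundant RNA on that scale in all 6 libraries before 48 h and GCLC in both 48 h libraries. The order was the same in CPM. The lengths used were merged exons, 4903 bases for GCLM and 6377 for GCLC, and other lengths would shift the ratio. The ratio itself was not tested.

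Within the 300-base windows searched, the core was present for GCLM and absent for GCLC. Whether these letters bear on the RNA levels was not tested. Stretches before the starts are printed on the strand of each gene. They run from 150 bases before the start to 26 bases before it for GCLM and 29 for GCLC, with the core on the opposite strand, GCTTAGTCA, in capitals.
GCLM, chr1:93909456-93909580, minus strand, GRCh38.p14: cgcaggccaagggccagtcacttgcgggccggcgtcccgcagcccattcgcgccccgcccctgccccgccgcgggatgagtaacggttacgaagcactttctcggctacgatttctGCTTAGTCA
GCLC, chr6:53545130-53545251, minus strand, GRCh38.p14: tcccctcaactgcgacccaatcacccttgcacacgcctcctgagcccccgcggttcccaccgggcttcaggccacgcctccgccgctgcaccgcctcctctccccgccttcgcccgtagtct

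**Figure D3:**
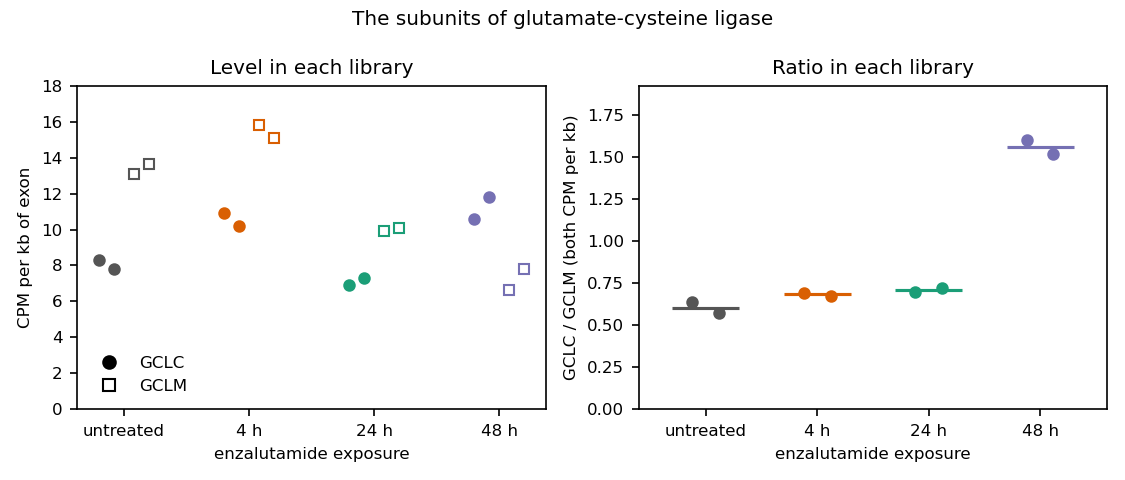
Left, level of GCLC and GCLM in CPM per kb of exon in each library; right, their ratio in each library with the group mean as a line. The ratio was 0.570 to 0.723 in the first 6 libraries and 1.52 and 1.60 at 48 h.

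Of 26 other glutathione genes tested, 4 were called higher and 1 lower at 4 h (4 and 4 by library totals). At 24 h 1 was higher and 3 were lower (0 and 6), and the 48 h counts were 12 higher and 7 lower (4 and 9). Called were 19.2%, 15.4% and 73.1% of the list, beside 28.6%, 22.3% and 66.9% of all tested genes. GLRX and GLRX2, glutaredoxins that reduce glutathionylated proteins, rose at 4 h by 0.43 (adjusted p = 0.00168) and 0.59 (adjusted p = 0.00327) on the log2 scale. GSR, which regenerates reduced glutathione, was at 94.5 and 95 CPM in control and at 167 CPM in both 48 h libraries (log2 change 0.81, adjusted p = 3.66e-07). GSS, the enzyme of the second step of glutathione synthesis, rose by 0.87 at 48 h (adjusted p = 1.61e-06). GPX3, a secreted glutathione peroxidase, was at 18.8 and 21.4 CPM in control and at 0.885 and 1.07 CPM at 48 h (log2 change -4.36, adjusted p = 2.59e-09). SLC7A11, the cystine importer and a known NRF2 target, was named after its values were seen. It was at 44.1 and 39.5 CPM in control, 68.7 and 58.1 CPM at 4 h, 35.5 and 46.3 CPM at 24 h, and 25.0 and 33.0 CPM at 48 h. Its log2 change was 0.60 at 4 h (adjusted p = 0.0106) and -0.53 at 48 h (adjusted p = 0.00888), and both calls were lost when 1 library was left out. Those were control replicate 2 (adjusted p = 0.0949) or 4 h replicate 1 (0.101) for 4 h, and control replicate 1 (0.0683) for 48 h.

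In the thioredoxin system, TXNRD1 and SRXN1 both rose at 4 h. TXNRD1, the cytosolic reductase that recharges thioredoxin with NADPH, was at 877 and 833 CPM in control, 1104 and 1087 CPM at 4 h, 947 and 944 CPM at 24 h, and 1289 and 1181 CPM at 48 h. The groups did not overlap, and the order from lowest to highest was control, 24 h, 4 h, 48 h. The log2 change of TXNRD1 was 0.36 at 4 h (SE 0.06, adjusted p = 0.00127), 0.14 at 24 h (adjusted p = 0.109) and 0.53 at 48 h (SE 0.06, adjusted p = 1.37e-05). SRXN1, sulfiredoxin, which repairs over-oxidised peroxiredoxins, was at 75.8 and 78 CPM in control, 136.8 and 137.9 CPM at 4 h, 80.5 and 81.6 CPM at 24 h, and 87.7 and 94.7 CPM at 48 h. Only the 4 h libraries of SRXN1 exceeded 100 CPM. Its log2 change was 0.84 at 4 h (SE 0.06, adjusted p = 7.17e-06), 0.075 at 24 h (adjusted p = 0.449) and 0.25 at 48 h (adjusted p = 0.00552). The 48 h change of SRXN1 was -0.032 with library totals, and its adjusted p was 0.0512 in a fit of the control and 48 h libraries alone.

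Of 17 other thioredoxin genes tested, edgeR called 2 higher and 0 lower at 4 h, 2 higher and 0 lower at 24 h, and 7 higher and 3 lower at 48 h. The share called was 11.8%, 11.8% and 58.8%, below the 28.6%, 22.3% and 66.9% of all tested genes. At an unadjusted p under 0.05 the first 2 comparisons gave 3 higher and 1 lower each, and DESeq2 and limma-voom called 0 lower in both. Library totals gave 2 and 2, 1 and 1, and 5 and 5. TXNIP, which binds and inhibits thioredoxin, was at 4.36 and 5.72 CPM in control, 19.8 and 25.9 CPM at 4 h, 16.5 and 15.6 CPM at 24 h, and 17.6 and 20.1 CPM at 48 h. All 6 exposed libraries of TXNIP were above both control libraries, with log2 changes of 2.18 at 4 h (adjusted p = 6.24e-06) and 1.67 at 24 h (adjusted p = 5.05e-05). PRDX1, an abundant cytosolic peroxiredoxin, fell at 48 h from 349 and 339 CPM to 148 and 142 CPM (log2 change -1.24, adjusted p = 1.81e-08). PRDX6, a peroxiredoxin that uses glutathione, rose at 48 h by 0.91 (adjusted p = 4.7e-07), and TMX1, a membrane thioredoxin of the endoplasmic reticulum, fell with a log2 change of -1.23 (adjusted p = 3.72e-07).

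NQO1 and OSGIN1, the remaining targets, were both highest at 48 h. NQO1, which reduces quinones in a 2-electron step with NAD(P)H, was at 229 and 219.7 CPM in control, 258 and 273 CPM at 4 h, 256 and 269 CPM at 24 h, and 375 and 310.0 CPM at 48 h. The 4 h and 24 h ranges of NQO1 overlapped, and the 48 h libraries were above them and apart from each other. The log2 change was 0.24 at 4 h (SE 0.08, adjusted p = 0.0504), 0.23 at 24 h (adjusted p = 0.0754) and 0.61 at 48 h (SE 0.08, adjusted p = 6.28e-05). The 4 h value passed the threshold with DESeq2 (adjusted p = 0.0469), with limma-voom (0.0438) and with the 48 h libraries left out (0.00169). OSGIN1, an oxidative stress-induced growth inhibitor, was at 35.8 and 36.8 CPM in control, 71.9 and 74.6 CPM at 4 h, 28.3 and 27.5 CPM at 24 h, and 121.7 and 117.9 CPM at 48 h. No groups of OSGIN1 overlapped, and the gene was above control at 4 h, below it at 24 h and highest at 48 h. Its log2 change was 1.01 at 4 h (SE 0.07, adjusted p = 2.35e-06), -0.38 at 24 h (SE 0.07, adjusted p = 0.00274) and 1.72 at 48 h (SE 0.07, adjusted p = 4.72e-09).

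Of 18 other detoxification targets of NRF2 tested, edgeR called 10 lower, 0 higher and 8 neither way at 24 h, where 9.39% of all tested genes were called lower. The list had a median log2 change of -0.37 at 24 h beside 0.015 over all genes. At an unadjusted p under 0.05 the counts were 2 and 10, and DESeq2, limma-voom and library totals each gave 0 and 10. The 4 h counts were 1 higher and 3 lower, and the 48 h counts 6 higher and 6 lower, or 1 and 10 by library totals. Called were 22.2% of the list at 4 h and 66.7% at 48 h, beside 28.6% and 66.9% of all tested genes. AKR1C1, an aldo-keto reductase, was at 193 and 189 CPM in control, 170 and 175 CPM at 4 h, 85.0 and 79.6 CPM at 24 h, and 140 and 141 CPM at 48 h. The 24 h libraries of AKR1C1 were the lowest (log2 change -1.22, adjusted p = 1.19e-06), although reads of AKR1C genes are uncertain because the copies are nearly identical. AKR1C2, also among the 10 lower at 24 h (log2 change -1.09), may share such reads, so the 10 may not be independent counts. NR0B1, an orphan nuclear receptor, was at 9.01 and 9.0 CPM in control, 3.88 and 4.26 CPM at 4 h, 2.81 and 3.11 CPM at 24 h, and 13.3 CPM in both 48 h libraries. It fell at 4 h (log2 change -1.14, adjusted p = 0.000118) and at 24 h (-1.61, adjusted p = 1.84e-05). AKR1B10, another aldo-keto reductase, was lower at 4 h (-1.36, adjusted p = 0.000319) and at 48 h (-1.48, adjusted p = 3.46e-05). UGDH, which makes the UDP-glucuronate used for glucuronidation, rose at 4 h by 0.71 (adjusted p = 1.75e-05). ABCC2, an export pump for glutathione and glucuronide conjugates, fell at 48 h with a log2 change of -0.96 (adjusted p = 1.17e-05), while TRIM16, an E3 ligase, rose by 0.87 (adjusted p = 1.09e-06).

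**Figure D4:**
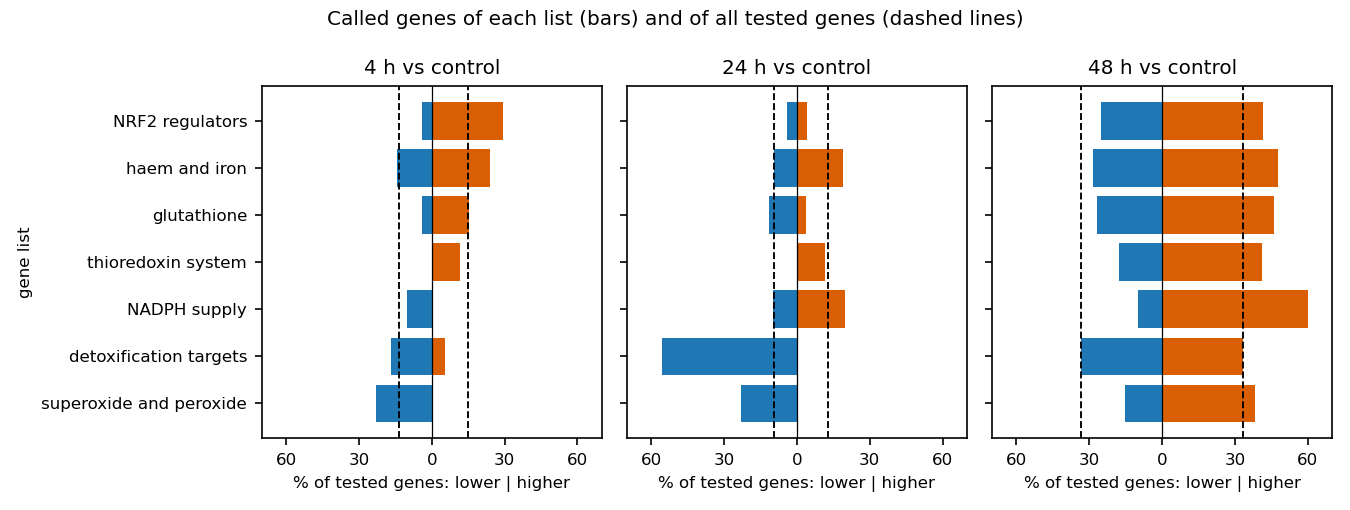
Share of the tested genes of each of 7 lists called lower (left of 0) or higher (right of 0) at 4, 24 and 48 h against control, in percent; dashed lines are the shares among all tested genes. At 24 h the detoxification targets had 10 of 18 lower and 0 higher; with library totals the 48 h bars of the regulators turn from 10 higher and 6 lower to 6 and 10.

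Of 10 NADPH-supplying enzymes, edgeR called 0 higher and 1 lower at 4 h, 2 higher and 1 lower at 24 h, and 6 higher and 1 lower at 48 h. Called were 10%, 30% and 70% of the list, beside 28.6%, 22.3% and 66.9% of all tested genes. At 4 h the counts were 0 and 4 at an unadjusted p under 0.05 and 0 and 1 with DESeq2 and with limma-voom, and library totals gave 0 and 5. Library totals gave 2 higher and 2 lower at 24 h, and 5 higher and 2 lower at 48 h. TKT, transketolase of the pentose phosphate pathway, was at 596 and 542 CPM in control, 438 and 436 CPM at 24 h and 1306 and 1183 CPM at 48 h. It was thus lower at 24 h (log2 change -0.38, adjusted p = 0.00261) and higher at 48 h (1.13, adjusted p = 1.12e-07). PGD, which yields NADPH in the same pathway, rose by 0.71 at 48 h (adjusted p = 2.28e-06).

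Of 13 superoxide and peroxide genes, edgeR called 0 higher and 3 lower at both 4 h and 24 h, and 5 higher and 2 lower at 48 h. Called were 23.1%, 23.1% and 53.8% of this list, beside 28.6%, 22.3% and 66.9% of all tested genes. The unadjusted counts were 0 and 3 at 4 h and 1 and 4 at 24 h, DESeq2 and limma-voom gave 0 and 3 at both, and library totals gave 1 and 2 at 48 h. SOD2, the mitochondrial superoxide dismutase, was at 2278 and 2346 CPM in control, 1873 and 1867 CPM at 4 h, 1362 and 1456 CPM at 24 h, and 2886 and 3386 CPM at 48 h. The 24 h libraries of SOD2 were the lowest and the 48 h libraries the highest, with a log2 change of -0.71 at 24 h (adjusted p = 6.42e-05). CAT, catalase, fell at 4 h from 76.6 and 78.9 CPM to 57.3 and 58.4 CPM (log2 change -0.43, adjusted p = 0.00086). Over all 7 lists, 129 genes were tested, of which 19 were higher and 12 lower at 4 h. The 24 h counts were 10 higher and 20 lower, and the 48 h counts 56 higher and 31 lower. Library totals turned the balance at 4 h to 16 higher and 23 lower and at 48 h to 28 and 46, and gave 7 and 26 at 24 h. The share called was 24% at 4 h, 23.3% at 24 h and 67.4% at 48 h, beside 28.6%, 22.3% and 66.9% of all tested genes.

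Within the set, the log2 CPM of SRXN1 followed HMOX1 most closely over the 8 libraries, with a Pearson's r of 0.992. Outside the set, among 3073 genes whose group means differed by at least 1 on the log2 scale, the genes most like HMOX1 were HSPH1, MT1X, RNF19B and SPHK1. Pearson's r with HMOX1 was 0.990 for HSPH1, 0.990 for MT1X, 0.982 for RNF19B and 0.980 for SPHK1, with Spearman's rho of 0.881, 0.952, 0.952 and 0.833. These are descriptions over 8 libraries in 4 groups of 2, so the points are not independent. HSPH1, a large heat shock protein of the HSP110 family, was at 99.4 and 110.0 CPM in control and at 216 and 225 CPM at 4 h. MT1X, a metallothionein that binds zinc and copper, was at 51.4 and 49.5 CPM in control, 766 and 653 CPM at 4 h, 66.6 and 76.4 CPM at 24 h, and 139.8 and 106.2 CPM at 48 h. Reads of MT1X are uncertain because metallothionein genes are nearly identical. RNF19B, an E3 ubiquitin ligase, was at 68.1 and 62.8 CPM in control and at 311 and 247 CPM at 4 h, and SPHK1, a sphingosine kinase, at 101.5 and 95.9 CPM and at 255 and 238 CPM. All 4 genes had their highest levels in the 4 h libraries, which follows from choosing them for likeness to HMOX1 over these libraries.

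**Figure D5:**
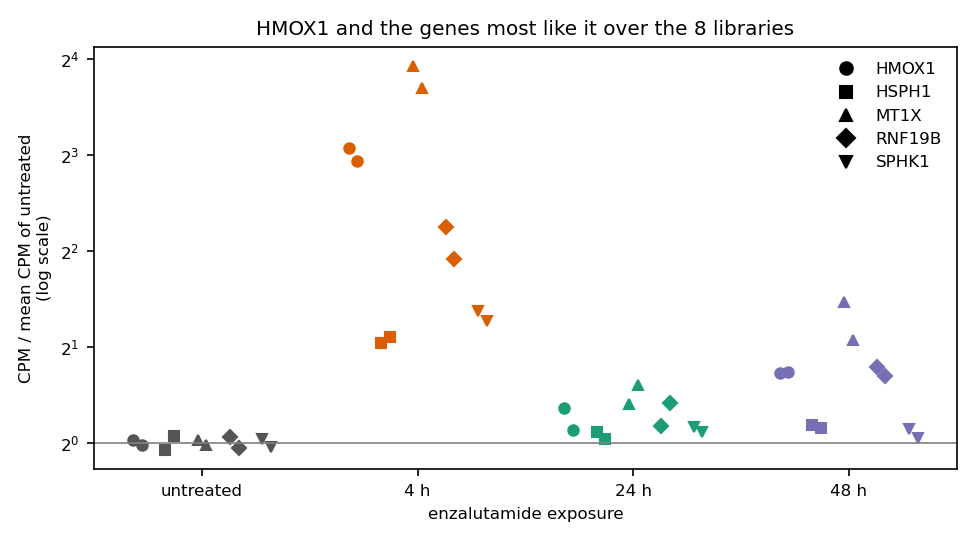
CPM of HMOX1 and the 4 genes outside the set most like it, among genes whose group means differed by at least 1 on the log2 scale, divided by the control mean (log scale), in each library. The 4 genes were chosen for likeness to HMOX1 over these libraries, so their shared 4 h peak follows from the choice. At 4 h MT1X was at 766 and 653 CPM and HMOX1 at 3194 and 2914 CPM.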

How the data were processed

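Gene expression was measured by RNA-seq in 8 libraries of U87MG cells. The authors deposited whole-number counts per gene symbol, not normalized. Bowtie, hg19 and GRCh37 are named, per the submitters' processing notes; no counting program, annotation or strand setting is given in the sources used here, so reads of overlapping or near-identical genes may be shared. In 28 gene names, turned into dates, 0.191 to 0.224% of counts were kept in the totals.

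The counts were tested with edgeR 4.0.16 under R 4.3.3 (filterByExpr, TMM, quasi-likelihood F test, 1 coefficient for each of 4 groups, 4 residual degrees of freedom), with Benjamini-Hochberg adjustment over 14448 genes and a threshold of 0.05. The SE of a log2 change is its size over the root of F. The code was tested on simulated data. Alternatives used DESeq2 1.42.0 and limma 3.58.1 (voom), other scalings, filters, fits and left-out libraries. Exon lengths came from GENCODE annotation by symbol (88.4% of tested genes). They are the merged exons of all basic transcripts of a gene, so a single transcript can be shorter.

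The 9 genes and all lists were chosen with earlier results of these data known. Named were the 9 genes, up to 3 called genes with the smallest p per list and exposure, of which some are given as counts only, and the 4 genes with the highest r with HMOX1 (mean log2 CPM at least 2, group range at least 1).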

Additional observations from a re-analysis of the deposited data

Results flagged for a closer look

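The changes that differed between exposures were those with an adjusted p under 0.05 in edgeR's test between 2 exposure times. The control mean does not enter that comparison, but the control libraries share its filter, fit, scaling and estimate of spread. From 4 h to 24 h, HMOX1 changed by -2.75 on the log2 scale, OSGIN1 by -1.39, SRXN1 by -0.76, GCLM by -0.63 and GCLC by -0.57. TXNRD1 changed by -0.21 and NFE2L2 by -0.26. The TXNRD1 call was lost when any 4 h or 24 h library was left out (adjusted p up to 0.0973), and the NFE2L2 call without 4 h replicate 2 (0.102) or 24 h replicate 2 (0.0944).

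From 24 h to 48 h, OSGIN1 changed by 2.10, NFE2L2 by 1.10, GCLC by 0.66, HMOX1 by 0.48, TXNRD1 by 0.39, NQO1 by 0.38 and SRXN1 by 0.17, while GCLM changed by -0.47. The NQO1 call held in 15 of 16 alternatives. The SRXN1 call held in 5 of 16 alternatives. It was lost without any one library other than 48 h replicate 1 (adjusted p up to 0.150), with no filter (0.0520) or a 5 CPM filter (0.187), with only the groups compared (0.0715), and with library totals (log2 change -0.044, adjusted p = 0.592).

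From 4 h to 48 h, HMOX1 changed by -2.28, GCLM by -1.10 and SRXN1 by -0.59, while NFE2L2 changed by 0.84, OSGIN1 by 0.71, NQO1 by 0.37 and TXNRD1 by 0.17. The NQO1 call held in 15 of 16 alternatives and the TXNRD1 call in 10. The TXNRD1 call was lost without 4 h replicate 1 (adjusted p = 0.0744), 4 h replicate 2 (0.108) or 48 h replicate 1 (0.0799). With 2 libraries per group, no library could be tested for standing apart from the rest of its group.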

How the results depend on the processing

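Over 891 recalculated changes of the 9 genes, 805 kept direction and side of the threshold, 39 lost the call, 29 gained it and 18 changed sign; for the other named genes 944 were kept, 54 lost the call and 0 changed sign. Sign changes with library totals were KEAP1 against control at 4 h (-0.030) and 48 h (-0.16) and from 24 h (-0.041) or 4 h (-0.13) to 48 h, SRXN1 at 48 h against control (-0.032) and 24 h (-0.044), and at 48 h against 4 h GCLC (-0.12) and TXNRD1 (-0.043). By construction that setting moves all genes down at 48 h. KEAP1 at 48 h against 4 h was -0.0067 with a 5 CPM filter, and NQO1 at 24 h against 4 h was 0.0041 without a filter. Leaving out 1 library gave ranges of -0.028 to 0.095 (KEAP1 at 4 h), -0.12 to 0.0028 (KEAP1 at 24 h), -0.0047 to 0.18 (KEAP1 at 48 h against 4 h), -0.050 to 0.019 (NFE2L2 at 24 h) and -0.055 to 0.027 (NQO1 at 24 h against 4 h); the cause was not tested.

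Fitting only the groups compared, at 24 h against control, called 5 of the 9 genes, 46 pathway genes and 5051 genes in all, beside 3, 30 and 3222. Leaving out both 48 h libraries, added after the data were seen, gave 6, 47 and 4907, and 48 pathway genes at 4 h beside 31. Without 1 library, calls at 24 h against control ranged from 1 (without 24 h replicate 1) to 6 (without either 48 h library) for the 9 genes, 13 (without 24 h replicate 2) to 49 (without either 48 h library) for pathway genes and 1349 to 4954 in all. At 4 h the ranges were 18 (without 4 h replicate 1) to 49 (without either 48 h library) and 2227 to 5783, and for 24 h against 4 h they were 26 (without 24 h replicate 1) to 70 and 3823 to 7338. A group left with 1 library was assumed to vary like the others. A replicate block, for which the labels give only numbers, called 7, 3 and 8 of the 9 genes at 4, 24 and 48 h against control, beside 6, 3 and 8. Deviations of same-numbered libraries from their group means, compared between 2 groups over the tested genes, had r of -0.0049 to 0.14. With 2 libraries per group, each r rests on 1 independent deviation per group. All 6 counts of the 9 genes under the block were within 1.5 times the unblocked ones. Between 24 h and 48 h the block called 9 of the 9 genes, KEAP1 added, beside 8. The 2 libraries of each group were also compared with a split by library totals, genes with few reads left out. The chi-square per degree of freedom was 6.91 in control, 14.6 at 4 h, 4.50 at 24 h and 20.8 at 48 h. Counting error alone gives about 1, so the spread exceeded counting error in every group. The cause of the excess was not tested.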
